A study of Mus musculus with 6 samples.

Results

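The genes described here form the core of the reelin pathway in mouse primary cortical cultures: the ligand Reln, the receptor genes Lrp8 and Vldlr, the adaptor Dab1, the relay genes Crk, Crkl and Rapgef1, the ubiquitin ligase genes Cul5 and Rnf7, and Pafah1b1, which encodes LIS1. The 10 genes were chosen by name for their place in the pathway, with earlier results of these data known. The study had already reported Reln mRNA as higher in the knockdown, by RNA-seq and, with each shRNA, by RT-qPCR. It found a much weaker rise in the protein. A locus of the deposited table was taken as theirs where its overlap with the annotated gene was at least 0.5 of their union. This gave 13 of the 32357 loci in the table, and 11 of these 13 passed a filter on low values (a mean of at least 1 FPKM over both groups and a value above 0 in each), as did 12626 loci in all. FPKM is a count of fragments corrected for transcript length and for library size, so levels of different genes can be set beside each other.

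Cortical cells from E14.5 Balb/c embryos were nucleofected in suspension with shRNA plasmids in the pSuperneoGFP backbone. They were plated in Basal Media Eagle with 10% serum, Glutamax, B-27 and N-2. Per the labels total RNA was taken after 4 days in vitro, while the paper's methods give a later day. There were 6 libraries of 50 bp single-end reads, 2 with a non-silencing shRNA (the control) and 4 with an shRNA against Neurod2 (2 with each of 2 different shRNAs), and the sources do not say whether libraries of a group came from separate cultures. NEUROD2 is a basic helix-loop-helix transcription factor of excitatory cortical neurons, and the comparison asks how these genes stand when it is depleted. The table holds 1 FPKM value per locus for the control and 1 for the knockdown, in which the authors pooled both shRNAs. No value below therefore has an SD, no difference can be set here against the spread between libraries, no test was run from the pooled values, and neither shRNA can be read on its own. The depth of the libraries is unknown.

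Reelin is a large glycoprotein that Cajal-Retzius cells secrete into the marginal zone of the developing cortex. It binds the lipoprotein receptors VLDLR and ApoER2 (the product of Lrp8) on migrating neurons, and SRC family kinases then phosphorylate the adaptor DAB1. Phosphorylated DAB1 recruits CRK and CRKL, which bring the exchange factor encoded by Rapgef1 to activate RAP1, and it is afterwards degraded through a ubiquitin ligase built on CUL5 and RNF7. LIS1 regulates the dynein motor during nuclear movement and binds phosphorylated DAB1. Loss of reelin, of DAB1 or of both receptors gives the inverted cortical layers of the reeler mouse.

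The targeted gene, Neurod2, was at 104.8 FPKM in the control and at 60.3 FPKM in the knockdown, 1.74-fold lower (log2 ratio -0.80). Its transcript was thus still abundant, with a mean level over both groups above that of 92.4% of the loci that passed the filter. Markers of excitatory cortical neurons were plentiful in both groups. The 10 of 11 listed markers that had a locus all passed the filter, their summed level was 546 FPKM in the control and 553 FPKM in the knockdown, and their log2 ratios lay between -0.17 and 0.21. Defining markers of endothelial cells and microglia were near 0, with summed levels of 0.109 and 0.135 FPKM in the control and 0.266 and 0.337 FPKM in the knockdown. Cdh5, Cldn5 and C1qa were listed at 0 in the control.

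Of the 10 members, only Reln differed by over 1.5-fold between the groups. It stood at 11.7 FPKM in the control and at 24.3 FPKM in the knockdown, 2.08-fold higher (log2 ratio 1.06). A ratio over 1.5-fold in this direction was found for 1.35% of all loci that passed the filter, and one over 1.5-fold in the other direction for 2.09%. At 2-fold, which Reln also passed, the shares were 0.578% and 0.792%. The 9 remaining members had log2 ratios from -0.36 to 0.12, 7 of them below 0 and 2 above. Their median was -0.09, beside -0.03 for all loci, of which 58.4% were below 0, and the median of the absolute ratio was 0.11 for the 9 members and 0.10 for all loci. The group of 9 thus lay about as far from 0 as the table at large.

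**Figure D1:**
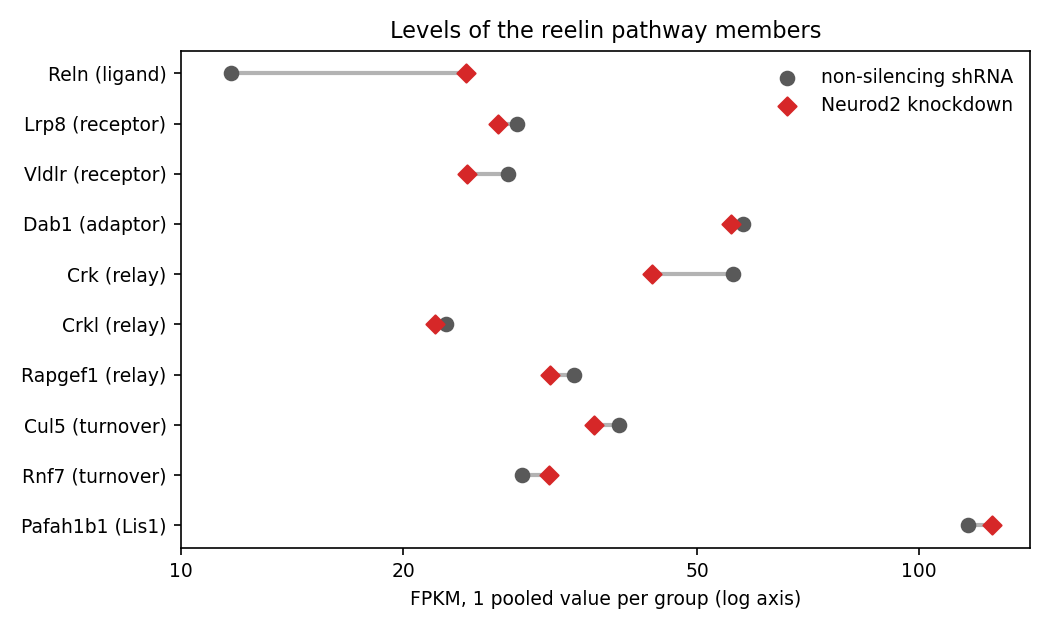
FPKM (log axis) of the 10 members in the control (grey circles) and in the Neurod2 knockdown (red diamonds), 1 pooled value per group and so without error bars. Reln is the lowest of the 10 in the control, at 11.7 FPKM, and its pair of points is the farthest apart, while Pafah1b1 is the highest in both groups.

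In the control, the order of levels from high to low was Pafah1b1, Dab1, Crk, Cul5, Rapgef1, Rnf7, Lrp8, Vldlr, Crkl and Reln. In the knockdown the order was the same except that Reln, at 24.3 FPKM, stood above Crkl, at 22.1 FPKM. Several neighbours in this order were close, among them Dab1 and Crk at 57.8 and 55.9 FPKM, and Rnf7, Lrp8 and Vldlr at 29.0, 28.6 and 27.8 FPKM in the control. Without a spread over libraries it cannot be said which neighbours differ.

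The ligand is encoded by one of the longer genes of the genome. In GENCODE M21 (GRCm38, the assembly of mm10), Reln spans 460.2 kb on the minus strand, at chr5:21884454-22344702, with 65 exons that make up 2.54% of the span. It has 1 locus in the table, which collects 10 transcript identifiers, holds no annotated small RNA gene and overlaps no other coding gene. Its log2 ratio was above that of 99.5% of the loci that passed the filter, and 63 loci (0.499%) had a ratio at least as high. Among the 5136 loci with a mean level within 2-fold of that of Reln, between 9.01 and 36.0 FPKM, 26 (0.506%) were over 1.5-fold higher in the knockdown, and 16 (0.312%) were at or above the ratio of Reln. The 24.3 FPKM of the knockdown stands in the table as deposited. The value in the control had been turned into a time in hours and minutes by a spreadsheet, and 25 numbers between 0.764 and 127.2 could lie behind it. Only 11.7 FPKM gave the log2 ratio that the table lists for the locus, so the ratio of Reln given here is not independent of the deposited one.

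The 250 bases upstream of the annotated RefSeq starts (GRCm38.p6) were read because NEUROD2 binds E-boxes, the letters CANNTG. The paper reports that most NEUROD2 binding lay away from promoters. It also cites the authors' earlier work for binding at promoters of several genes, among them Dab1, Fyn and Lrp8. At Reln it describes peaks in introns. Those introns were not read here. Factors of the NeuroD family prefer the E-box CAGATG, which reads CATCTG on the opposite strand, and also bind the palindrome CAGCTG. The 5 windows shown include those of Reln and Crk, the members with the highest and the lowest ratio. The others are those of the 2 Lrp8 starts that hold CAGATG or CATCTG, and of Crkl, which holds CAGCTG. Vldlr start 2 also holds CAGCTG and is not shown. The windows shown are written 5′ to 3′ on the strand of the gene, and capitals mark E-boxes. The windows lie at chr5:22344706-22344955 (minus strand) for Reln, chr11:75679009-75679258 (plus) for Crk, chr4:107822911-107823160 and chr4:107830703-107830952 (plus) for Lrp8 starts 2 and 3, and chr16:17451735-17451984 (plus) for Crkl. Both Lrp8 windows are inside the gene and outside its annotated exons.
Reln: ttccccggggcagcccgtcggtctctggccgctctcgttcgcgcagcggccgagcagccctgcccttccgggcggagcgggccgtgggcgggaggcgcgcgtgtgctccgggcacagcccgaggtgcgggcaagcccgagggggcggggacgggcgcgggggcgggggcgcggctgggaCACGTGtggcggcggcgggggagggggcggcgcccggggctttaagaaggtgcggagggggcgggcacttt
Crk: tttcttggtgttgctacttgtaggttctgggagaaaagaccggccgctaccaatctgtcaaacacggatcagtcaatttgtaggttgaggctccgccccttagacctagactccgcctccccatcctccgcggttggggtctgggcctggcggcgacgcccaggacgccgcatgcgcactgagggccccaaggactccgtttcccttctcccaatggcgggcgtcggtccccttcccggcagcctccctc
Lrp8 start 2: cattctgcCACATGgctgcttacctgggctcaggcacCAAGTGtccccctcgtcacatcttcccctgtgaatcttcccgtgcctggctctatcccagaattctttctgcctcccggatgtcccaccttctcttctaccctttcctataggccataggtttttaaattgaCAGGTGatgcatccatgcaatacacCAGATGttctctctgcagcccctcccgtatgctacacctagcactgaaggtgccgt
Lrp8 start 3: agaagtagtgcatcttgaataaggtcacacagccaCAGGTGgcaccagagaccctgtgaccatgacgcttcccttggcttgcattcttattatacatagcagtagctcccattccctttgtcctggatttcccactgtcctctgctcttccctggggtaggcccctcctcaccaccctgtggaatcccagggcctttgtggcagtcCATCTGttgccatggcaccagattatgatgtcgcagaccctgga
Crkl: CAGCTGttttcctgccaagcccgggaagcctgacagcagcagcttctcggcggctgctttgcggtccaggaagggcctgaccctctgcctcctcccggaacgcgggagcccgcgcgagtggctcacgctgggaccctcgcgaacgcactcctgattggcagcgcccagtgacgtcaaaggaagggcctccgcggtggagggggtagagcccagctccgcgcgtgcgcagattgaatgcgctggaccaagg

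The table of promoters gives 14 starts for the 10 members, and 8 of the 14 windows held 17 E-boxes in all, while 6 held none. Over all 32851 windows of the same length, 66.2% held an E-box, with a mean of 1.16 per window. The Reln window, with a GC content of 80.0%, held a single E-box, CACGTG, whose first base lies 71 bases before the start. CAGATG or CATCTG stood in 2 of the 14 windows, both at Lrp8, and in 14.4% of all windows. CAGCTG stood in 2 of the 14, 1 at Crkl and 1 at Vldlr start 2, and in 13.0% of all. These sites were searched on both strands, and all are counted among the CANNTG sites as well. Crk, Rapgef1, Cul5 and Pafah1b1 had no E-box in their windows, nor did start 1 of Lrp8 or of Vldlr. Some windows overlap annotated exons of their gene, by 182 and 141 bases at Dab1 starts 1 and 2, 179 at Vldlr start 2 and 110 at Pafah1b1. A match is a description of the letters in the window and shows no binding.

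**Figure D2:**
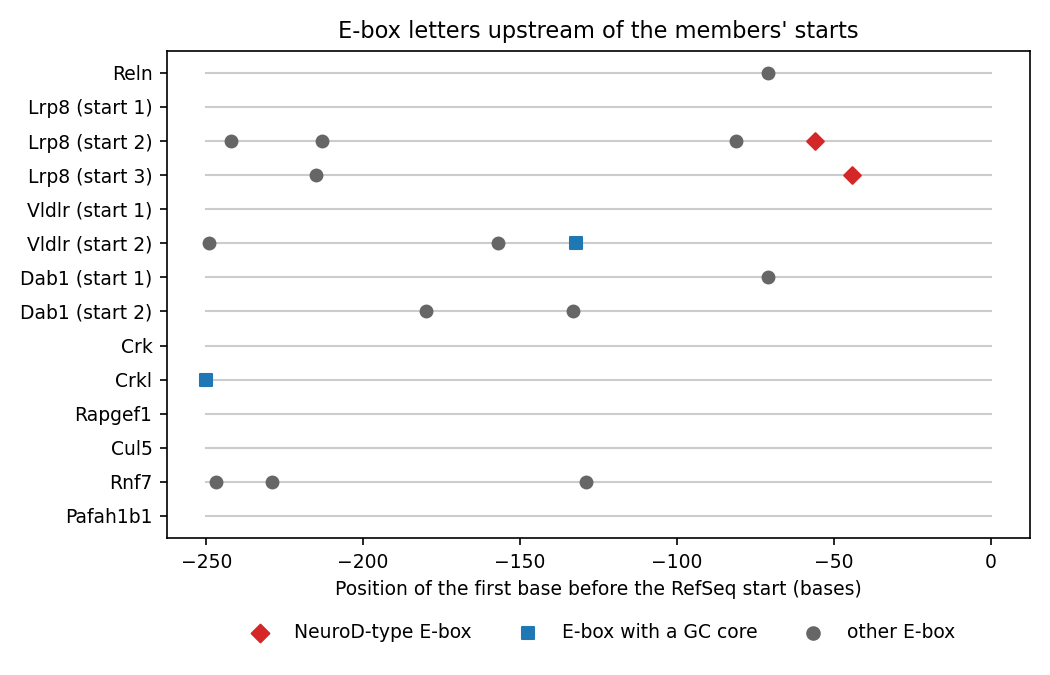
Positions of E-boxes in the 250 bases upstream of the 14 RefSeq starts of the 10 members, by the distance of the first base before the start (horizontal axis, bases). Red diamonds are the NeuroD-type letters named in the text, which occur only at Lrp8 starts 2 and 3, blue squares are E-boxes with a GC core, at Crkl and Vldlr start 2, and grey circles are other E-boxes.

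The receptors were both slightly lower in the knockdown, as were 58.4% of all loci that passed the filter, by any amount. Lrp8, which encodes ApoER2 (chr4:107802261-107876840, plus strand, 19 exons), was at 28.6 FPKM in the control and at 26.9 FPKM in the knockdown, a log2 ratio of -0.09. Of all loci that passed the filter, 55.7% lay at least as far from 0. A second locus at the same position, with 1 transcript identifier, was at 0.973 and 0.792 FPKM and did not pass the filter. Vldlr, the very low density lipoprotein receptor (chr19:27216484-27254231, plus strand, 19 exons), was at 27.8 FPKM and at 24.4 FPKM, a log2 ratio of -0.19, and 24.7% of loci lay as far from 0. The receptors were thus present at nearly equal levels, with an Lrp8 to Vldlr ratio of 1.03 in the control and 1.10 in the knockdown. Their summed level was 56.3 FPKM in the former and 51.2 FPKM in the latter. The ratio of Reln to the sum of its receptors was 0.208 in the control and 0.475 in the knockdown.

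Dab1, the adaptor that is phosphorylated when reelin binds its receptors, was at 57.8 FPKM in the control and at 55.6 FPKM in the knockdown. Its log2 ratio of -0.05 was among the closest to 0 of the members, and 71.1% of loci lay at least as far from 0. Dab1 is also the longest member. It spans 1125 kb at chr4:103619359-104744844 (plus strand), and its 15 exons make up 0.469% of this span. A second locus at the same position was listed at 0 in both groups. There was 4.94 times as much Dab1 as Reln per kilobase in the control and 2.28 times as much in the knockdown, a difference that lay almost wholly in Reln.

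Of the relay genes, Crk stood farthest from 0. Crk (chr11:75679259-75706908, plus strand, 3 exons), an SH2 and SH3 adaptor, was at 55.9 FPKM in the control and at 43.5 FPKM in the knockdown, 1.29-fold lower (log2 ratio -0.36). This was the lowest ratio of the 9 other members, it remained within 1.5-fold, and 7.96% of loci lay as far from 0. Its paralog Crkl (chr16:17451987-17487434, plus strand, 3 exons) was at 22.9 and 22.1 FPKM, a log2 ratio of -0.05. Both Crkl values had been altered by the spreadsheet and were recovered in the same way as that of Reln. Crk and Crkl together were at 78.8 FPKM in the control, 71.0% of it from Crk, and at 65.5 FPKM in the knockdown, 66.3% of it from Crk. Rapgef1 (chr2:29619720-29740978, plus strand, 24 exons), which encodes the exchange factor, was at 34.0 and 31.6 FPKM, a log2 ratio of -0.11. All 3 relay genes were therefore lower in the knockdown, by 1.04-fold for Crkl, 1.08-fold for Rapgef1 and 1.29-fold for Crk. The same direction was found for 58.4% of all loci that passed the filter.

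The turnover genes went in different directions by small amounts. Cul5 (chr9:53614582-53670014, minus strand, 19 exons), the cullin scaffold of the ligase, was at 39.2 FPKM in the control and at 36.2 FPKM in the knockdown (log2 ratio -0.11). Rnf7 (chr9:96470937-96478675, minus strand, 3 exons), its RING subunit, was at 29.0 and 31.5 FPKM (log2 ratio 0.12). The Cul5 to Rnf7 ratio was 1.35 in the control and 1.15 in the knockdown. Annotated small RNA genes lie inside 2 of the member loci, the 129 bp snoRNA gene Gm22304 inside Cul5 and the 67 bp snRNA gene Gm22770 inside Crkl. Both are on the strand opposite to the member, and what they add to the values was not tested.

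Pafah1b1 (chr11:74673949-74724670, minus strand, 11 exons of which 10 hold coding sequence) was the most abundant member, above 95.3% of the loci that passed the filter in mean level. It was at 116.6 FPKM in the control, a cell recovered from a time in the same way, and at 125.4 FPKM in the knockdown (log2 ratio 0.11). A second locus at the same position, with 1 transcript identifier, was at 0.953 and 1.06 FPKM and passed the filter only barely, at a mean of 1.01 FPKM.

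**Figure D3:**
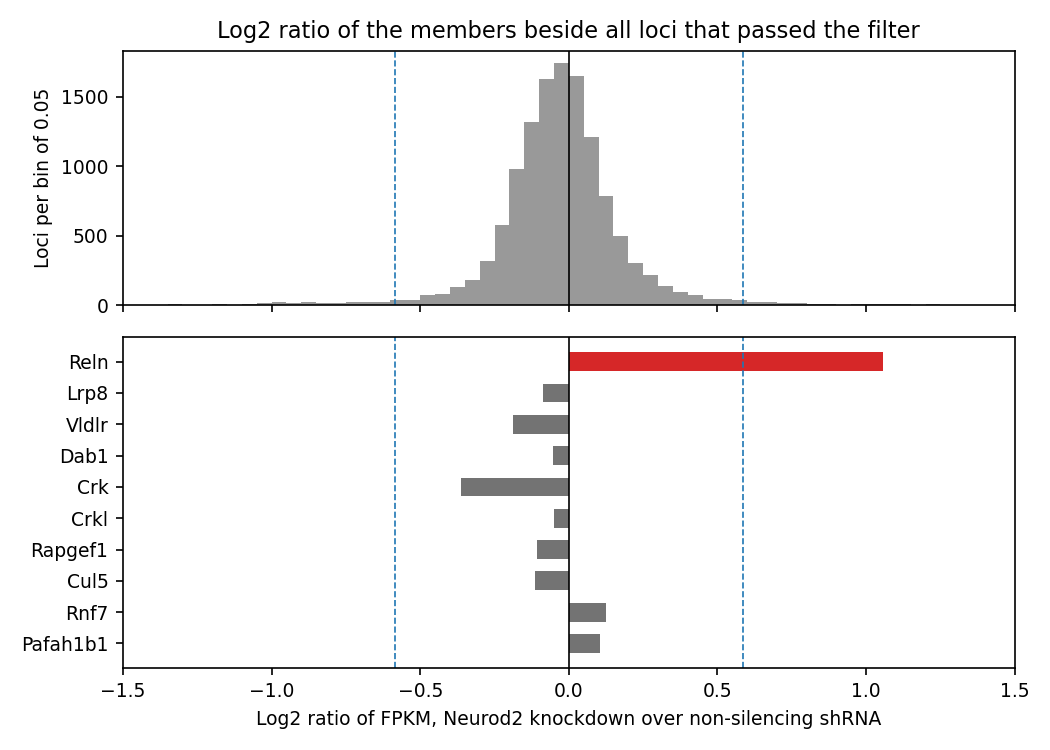
Log2 ratio of FPKM, knockdown over control, for the 12626 loci that passed the filter (top, loci per bin of 0.05, with 83 loci beyond 1.5 in either direction not drawn) and for the 10 members (bottom). Dashed lines mark 1.5-fold, which Reln alone of the members passes, at 1.06.

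The members were then set beside 68 other genes of the pathway, a list of kinases, integrins, proteases, further receptors and downstream targets. A locus was found for 64 of them, 58 passed the filter, and 55 of the 58 lay within 1.5-fold, at log2 ratios between -0.37 and 0.22. The median of the 58 was -0.04, close to the -0.03 of all loci. A single gene was over 1.5-fold higher, Akt1, and 2 were over 1.5-fold lower, Limk1 and Apoe, beside 1.35% and 2.09% of all loci, so these counts of 58 are near the background. Akt1, a kinase downstream of PI3 kinase, was at 68.1 and 105.1 FPKM (log2 ratio 0.63), but a second locus at its position, of similar level, was at 76.3 and 67.7 FPKM (log2 ratio -0.17). The microRNA gene Mir6939 lies inside both. Limk1, the kinase that phosphorylates cofilin, was at 58.9 and 27.7 FPKM (log2 ratio -1.09), and a second locus there was at 14.7 and 14.6 FPKM (log2 ratio -0.01), while 2 more were listed at 0 in both groups. The direction for Akt1 thus depends on the locus, and for Limk1 the difference was in 1 of its loci. Apoe, a lipoprotein ligand of the same receptors that astrocytes secrete, has 1 locus and was at 116.6 and 75.0 FPKM (log2 ratio -0.64). Beside it, the astrocyte marker Gfap was at 57.4 and 35.1 FPKM (log2 ratio -0.71), while the other 4 astrocyte markers that passed the filter lay within 1.5-fold and the summed level of the list was 247 and 232 FPKM. The part of astrocyte content in the Apoe values was not tested.

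From the same list, 15 genes had been picked by name as partners of the members or of the steps they act in, and Apoe was not one of them. Of the 15, 14 passed the filter and 0 differed by over 1.5-fold, where 1.35% of all loci were over 1.5-fold higher and 2.09% lower, so a count of 0 in 14 is near the background. Their log2 ratios lay between -0.20 and 0.15. The kinases that phosphorylate DAB1, Fyn and Src, were at 86.9 and 27.4 FPKM in the control and at 77.8 and 23.9 FPKM in the knockdown (log2 ratios -0.16 and -0.20). Yes1, another kinase of the SRC family, was not among the 15 and lay in the other direction, at 9.57 and 11.1 FPKM (log2 ratio 0.22). Rap1a and Rap1b, the small GTPases that the product of Rapgef1 activates, were at 7.85 and 34.5 FPKM in the former and 8.09 and 35.8 FPKM in the latter. Itgb1 and Cdh2, the integrin and cadherin through which RAP1 acts on adhesion, had log2 ratios of 0.05 and -0.04. The SOCS proteins bring phosphorylated DAB1 to the CUL5 ligase. Socs7 was at 26.7 and 25.4 FPKM and Socs6 at 7.42 and 8.21 FPKM, while Eloc, which links SOCS proteins to CUL5, was at 101.5 and 109.9 FPKM. Ndel1, the partner of LIS1 on dynein, was at 33.9 and 30.7 FPKM, and Cdk5, a kinase that phosphorylates NDEL1, at 30.2 and 30.5 FPKM. Of the proteases that cleave reelin, Adamts3 was at 5.74 and 5.48 FPKM and Plat at 10.9 and 10.3 FPKM. Elob had no locus. The highest levels of the list were those of Cfl1 (398 and 385 FPKM), which encodes cofilin, of the microtubule-associated genes Mapt (270 and 240 FPKM, log2 ratio -0.17) and of Dcx (235 and 250 FPKM, log2 ratio 0.09).

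Reln is expressed in some cells more than in others, and in bulk cultures more cells of a type and more RNA per cell cannot be told apart. Markers of Cajal-Retzius cells, the classical source of reelin, were therefore read beside it. All 12 listed markers had a locus with a value above 0 in both groups, and 10 of the 12 were higher in the knockdown, 7 of them by over 1.5-fold. Of the 18501 loci above 0 in both groups, 44.8% were higher in the knockdown and 8.22% by over 1.5-fold. Of the 7, Trp73, Lhx1, Lhx5 and Car10 had a mean below 1 FPKM. The 8.22% includes the loci that passed the filter, with a share of 1.35%, so among low loci the share is above 8.22%. Only 6 of the markers passed the filter, and 3 of these were over 1.5-fold higher, beside 1.35% of all loci that passed. Calb2, which encodes calretinin, was at 3.54 FPKM in the control and at 6.59 FPKM in the knockdown (log2 ratio 0.90). Nhlh2, a helix-loop-helix factor, was at 2.48 and 4.34 FPKM (0.81), and Ndnf, a secreted factor, at 2.49 and 4.09 FPKM (0.72), which came within 1.5-fold with a pseudocount of 1 FPKM. Cxcr4, the chemokine receptor, was at 8.20 and 7.35 FPKM (-0.16). The more restricted markers were low in both groups. Trp73, Lhx1 and Lhx5 were at 0.353, 0.0876 and 0.203 FPKM in the control and at 0.638, 0.223 and 0.408 FPKM in the knockdown. Over the whole list the summed level was 19.9 and 27.0 FPKM. The 9 members other than Reln lay within 1.5-fold, as given above. The part of Cajal-Retzius cells in the Reln values was not tested.

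Reln is also expressed by some GABAergic interneurons, and of that list 8 of 15 markers had a locus and 5 passed the filter. Sst, the neuropeptide somatostatin, was at 3.29 and 6.55 FPKM (log2 ratio 0.99), whereas Sp8, an interneuron transcription factor, was at 6.53 and 3.47 FPKM (-0.91). The GABA-synthesizing enzyme gene Gad2 was at 2.49 and 2.18 FPKM (-0.20), and the summed level of the list was 17.7 and 17.8 FPKM. Markers of radial glia and progenitors, with 6 genes past the filter, had log2 ratios from -0.39 to 0.05, and those of the oligodendrocyte lineage, also with 6, from -0.49 to 0.04. Of 8 fibroblast and mural cell genes, 6 were higher in the knockdown and 4 by over 1.5-fold, all 4 below the filter. Without the filter, 44.8% of all loci above 0 in both groups were higher, and 8.22% by over 1.5-fold. That 8.22% includes the loci that passed the filter, with their share of 1.35%. Among loci below the filter the share is therefore above 8.22%. The collagen gene Col1a1 was at 0.125 and 0.975 FPKM, the collagen gene Col3a1 at 0.171 and 0.765 FPKM, the matrix gene Postn at 0.262 and 0.834 FPKM, and the smooth muscle actin gene Acta2 at 0.409 and 1.28 FPKM. The 2 that passed the filter, Dcn and Pdgfrb, lay within 1.5-fold, and the summed level of the list was 4.40 and 7.09 FPKM. The part of these cells in the Reln values was not tested.

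**Figure D4:**
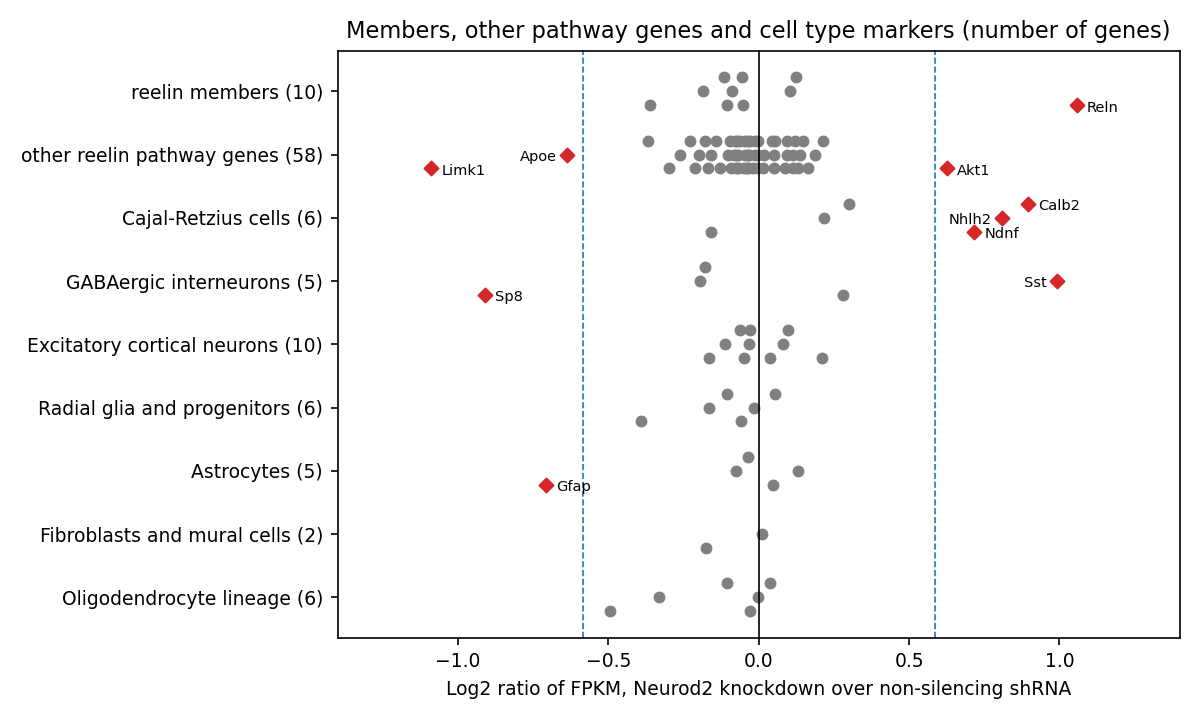
Log2 ratio of FPKM, knockdown over control, of each gene that passed the filter, in rows for the 10 members, 58 other pathway genes and 7 lists of cell type markers, with the number of genes in brackets and dashed lines at 1.5-fold. Named red diamonds lie beyond 1.5-fold: Reln among the members, Akt1, Limk1 and Apoe among the other pathway genes, and Calb2, Nhlh2, Ndnf, Sst, Sp8 and Gfap among the markers.

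Among 8153 loci named for a single gene, the levels most like those of Reln, by the distance of the log2 FPKM over the 2 groups, were those of Met, Flad1, Mob1b, Mir8091 and Hilpda. Met, the receptor of hepatocyte growth factor, was at 14.6 and 24.2 FPKM (log2 ratio 0.74), and Flad1, which encodes FAD synthase, at 14.2 and 27.8 FPKM (0.97). Mob1b, Mir8091 and Hilpda were at 15.0, 15.2 and 16.0 FPKM in the control, with log2 ratios of 0.45, 0.44 and 0.53. With only 2 values per gene this likeness says that levels are close in both groups and nothing more.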

How the data were processed

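RNA was sequenced from 6 libraries of primary cortical cultures. Per the submitters' processing notes the authors used TopHat, Cufflinks and Cuffdiff with mm10, without versions. The authors' deposited table gives 1 FPKM value per group and locus, pooled over 2 and 4 libraries, and a log2 fold change, test statistic, p-value and q-value of their own comparison, which were not used as results. No columns of single libraries were read.

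Numbers of 5029 loci had been stored by a spreadsheet as times in hours and minutes, or could be read as such times. For each, the possible numbers were listed, and the pair whose log2 ratio equalled the deposited log2 fold change within 2e-05 was kept. This restored 4938 loci and left 91 open. As a check, 5406 loci were altered on simulated data by the rule that the repair inverts, with the log2 ratio left intact. Of these, 5393 came back rightly, 13 stayed unresolved and 0 were wrong. The simulated loci came only from those with known values above 0 in both groups. The check therefore cannot show errors where the deposited log2 value was itself altered or where a group was at 0.

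Loci were matched to GENCODE M21 genes (GRCm38) by position, using the locus of highest mean FPKM where a gene of a list had several. Ratios used no pseudocount. With 1 value per group, a gene was counted as different past 1.5-fold, the fold the study used. Promoter sequences are from RefSeq. The named genes are all members, Neurod2, the direct partners, the 3 most abundant pathway genes, pathway and marker genes past 1.5-fold, and the 5 loci nearest to Reln, with Yes1 and further markers added after their values were seen. Members and lists were chosen with earlier results of these data known. Alternatives were other pseudocounts, centring, filters, folds, overlaps, summed loci and loci by status. Python 3.11.15 and matplotlib 3.10.9 were used.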

Additional observations from a re-analysis of the deposited data

How the results depend on the processing

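No paired analysis was possible because the table holds 1 pooled value per group, and for the same reason no library could be left out in turn. All 43 alternative values of the members' log2 ratios kept their direction and their side of 1.5-fold. They reuse the same pooled values, and the stricter overlap changed no member's ratio. They therefore say nothing of the spread between libraries. The log2 ratio of Reln ranged from 1.00 to 1.09, and no other member moved by more than 0.032. Among loci with only unaltered cells, 0 members were over 1.5-fold higher in place of 1, because the Reln locus itself is then left out. Without a filter on low values, 1520 loci (8.22%) were over 1.5-fold higher in place of 171 (1.35%) and 1500 lower in place of 264. Of the markers, 7 of Cajal-Retzius cells were higher in place of 3. Of interneuron markers, 2 were higher and 2 lower in place of 1 each. Higher in place of 0 were 4 fibroblast and mural, 2 endothelial and 2 microglial markers. All of these lie below the filter, where the share of loci is above 8.22%. Only 2 endothelial and 2 microglial markers were above 0 in both groups. With a pseudocount of 1 FPKM, or with an overlap of at least 0.9, 2 Cajal-Retzius markers were higher in place of 3, Ndnf being the one lost. With a mean of at least 5 FPKM, 84 loci, 1 Cajal-Retzius marker and 0 interneuron markers were higher. With a pseudocount of 0.1 FPKM, 298 loci were higher, since loci at 0 in 1 group then enter. With a fold of 2, 73 loci were higher and 100 lower, Reln still counted, 0 other pathway genes were higher and 1 (Limk1) lower, 0 Cajal-Retzius markers and 0 interneuron markers were higher, and 0 interneuron and 0 astrocyte markers were lower. With an overlap of at least 0.9, 0 astrocyte markers were lower, since the Gfap locus is then not matched. The unknown depth and the single value per group limit every comparison: a log2 ratio such as that of Crk cannot be told from the spread between libraries.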
